A study of Tupaia belangeri with 15 samples.

Results

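Rod ON bipolar nuclei were examined in the retina of the tree shrew (TS, Tupaia belangeri), a small day-active mammal close to primates. A nucleus was taken as rod ON (Rod_ON) when it held at least 2 unique molecular identifiers (UMIs, each standing for 1 captured RNA molecule) of CA10, at least 2 of PRKCA, at least 1 of TRPM1, GRM6 or PCP2, and none of GAD1, GAD2, RBPMS or ARR3. Nuclei had to hold more than 200 and fewer than 6000 detected genes and less than 5% mitochondrial UMIs. Of 119765 nuclei that passed these limits, out of 120437 barcodes, 4479 met the rule. Bipolar nuclei as a whole, with the same CA10 and exclusion limits, numbered 33567. The data came from single-nucleus RNA sequencing of 15 retinas, 5 from infant, 5 from mature, and 5 from senile animals. The infant TSs were 1.40 to 2.10 months old, the mature TSs 25.0 to 36.0 months, and the senile TSs 85.8 to 86.6 months. The labels name no treatment and no genetic change in any group. Infant and mature animals came from a single animal centre and the senile animals were bought from another institute, so old age and source cannot be told apart. Sex is not in the sample labels and did not enter any test.

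Bipolar cells are the second neurons of the visual pathway. They take up the glutamate signal of the photoreceptors at their dendrites and pass it on to amacrine and ganglion cells through ribbon synapses. ON bipolar cells respond to the fall of glutamate in light: the receptor mGluR6 (GRM6) acts through the G protein Go to close the cation channel TRPM1, and light lets that channel open. In most mammals the rod bipolar cell is a single ON type, recognised by protein kinase C alpha (PRKCA), that collects the output of rods and forwards it through amacrine cells. OFF bipolar cells use ionotropic glutamate receptors such as GRIK1 in place of mGluR6. Tree shrews have a retina dominated by cones, in which rods are few.

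The 15 libraries held 13429873 to 58734300 UMIs and each gave 27 to 466 rod ON nuclei. By retina the infant animals gave 301, 335, 317, 466 and 418 rod ON nuclei, the mature animals 266, 320, 420, 329 and 347, and the senile animals 270, 27, 109, 166 and 388. The library Senile 2 stood apart, since its 27 rod ON nuclei summed to only 42316 UMIs, where the other retinas reached up to 2732709. In that retina a single UMI counts for 23.6 CPM (UMIs of a gene per 1000000 UMIs summed over the rod ON nuclei of a retina), so its values for genes of low abundance carry little weight. The median rod ON nucleus held 3535 UMIs, and the medians of the retinas lay between 1128 and 5193. Rod ON nuclei were deeper than the other bipolar nuclei they are set against, partly by construction, since the rule asks for several UMIs of named genes. File headers give 2 versions of the counting program, and the 7 libraries of the older version had a median bipolar nucleus of 1514 UMIs on average against 3386 in the other 8. Every stage held libraries of both versions. The 7 libraries and the other 8 also form 2 separate runs of repository sample numbers, so program version cannot be told apart from a batch of libraries. Of the rod ON barcodes, 4 occurred in a pair of libraries.

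The ON genes through which nuclei met the rule are given as a description. TRPM1, the channel of the ON response, had a UMI in 74.2% of rod ON nuclei, and between 56.0 and 84.1% by retina. PCP2, a regulator of Go that marks ON bipolar cells, had one in 79.1%, and GRM6 in 14.2%. In 16027 cone nuclei (at least 2 UMIs of ARR3 and none of CA10), which should lack these genes and had a similar median depth of 3154 UMIs, the shares were 4.29% for TRPM1, 16.2% for PCP2, 0.162% for GRM6 and 6.68% for PRKCA. The rule asked for any 1 of the 3 ON genes, so their levels here are no check of the label. Nuclei met the rule through different genes: 2049 nuclei held TRPM1 and PCP2 without GRM6, 1018 held PCP2 alone, 775 TRPM1 alone, 49 GRM6 alone, and 387 held all 3. The 1018 nuclei that rest on PCP2 alone thus rest on a gene that the largest share of cone nuclei also held.

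The label could be checked only in part on rod bipolar markers of other mammals that the rule did not use. CABP5, a calcium-binding protein, GNG13, the gamma subunit of the Go protein, and SEBOX, a homeobox factor, were listed at 0 UMIs in all 119765 nuclei, and so was COX7C, a subunit of cytochrome c oxidase that every cell uses. A 0 of these features therefore cannot be read as a low level. GAD2, one of the genes that the rule excludes, was also at 0 in every nucleus and removed none. GAD1 held only 630 UMIs over all nuclei, where RBPMS held 18646 and ARR3 454698. The rule could therefore remove few amacrine nuclei through GAD1 and GAD2. CA8 and QPRT, other markers of rod bipolar cells in rodents, were counted in some nuclei and were at 1.58 and 0.570 CPM.

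The kainate receptor GRIK1, a marker of OFF bipolar cells that the rule did not use, split the rod ON nuclei. In these files it is counted almost entirely under a numbered copy, GRIK1li1. No UMI of GRIK1li1 was found in 50.7% of rod ON nuclei, but 881 of 4479 (19.7%) held more than 30 per 10000 UMIs, a range filled by most OFF nuclei, and 202 lay between 10 and 30. Other nuclei with an ON gene held the copy too. Among 10730 PRKCA-negative bipolar nuclei with an ON gene, before those with GRIK1li1 were removed for the comparisons below, 34.6% lay above 30, and among OFF nuclei, chosen for the copy, 77.6%. Every retina had such nuclei, from 12.6 to 32.0% of its rod ON nuclei. They held a median of 5552 UMIs against 3252 in the rest, and a doublet caller marked 41.1% of them against 8.75% of the rest. Doublet calls took 15.1% of all rod ON nuclei, with 47.9% among the 941 that had 6000 or more UMIs. In the PRKCA-negative ON and the OFF nuclei compared below they took only 2.87 and 4.36%. Doublets were kept in the main results, and values without the GRIK1li1-high nuclei stand beside several of the results below.

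**Figure D1:**
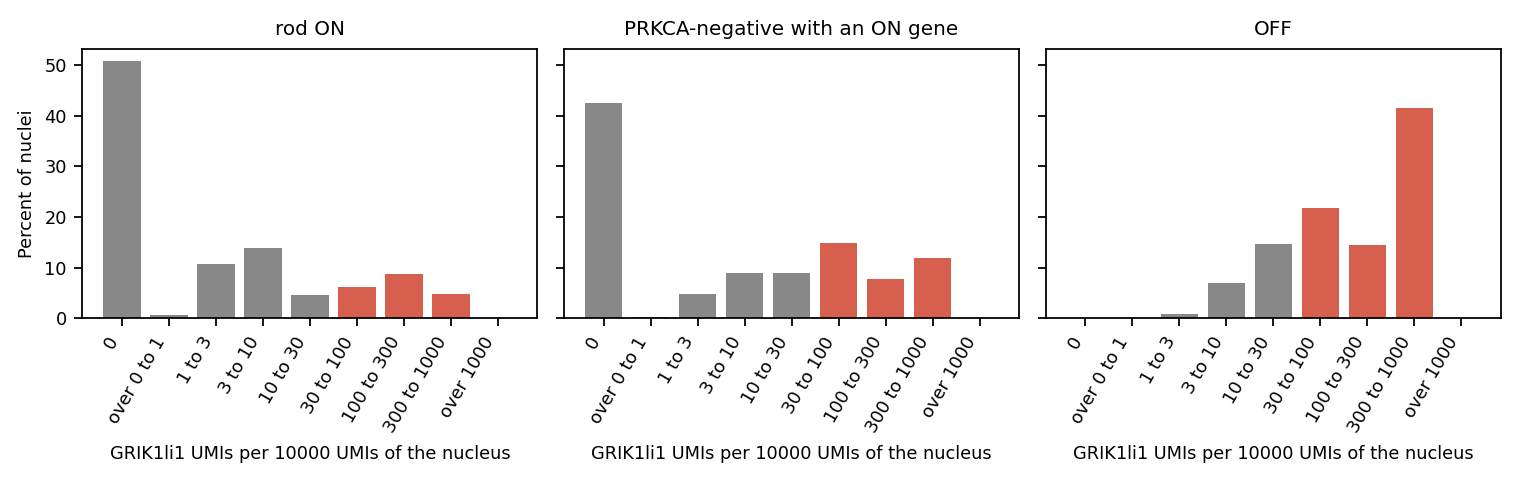
Percent of nuclei (y axis) by UMIs of the GRIK1 copy GRIK1li1 per 10000 UMIs (x axis) in rod ON nuclei, in PRKCA-negative bipolar nuclei with an ON gene, and in OFF nuclei, whose rule requires 2 UMIs of the copy; red bars lie above 30. In rod ON nuclei 19.7% lie in the red range, separate from the large bar at 0.

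The thresholds of the rule cut through a continuous range of counts. Exactly 2 PRKCA UMIs were found in 1935 rod ON nuclei, just inside, and exactly 1 in 3245 nuclei that met every other criterion, just outside. TRPM1 was present in 70.1% of the former and 61.6% of the latter. Exactly 2 CA10 UMIs were found in 199 nuclei, and 223 with only 1 stayed out. A further 1333 nuclei met all but the ON gene criterion, and 2884 with a median of 6126 UMIs were removed only because they held a UMI of GAD1, GAD2, RBPMS or ARR3.

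The first question was whether the abundance of rod ON nuclei differs between the stages. With the rule as given no difference in the share of all nuclei passed the test, and the senile mean was the lowest. With PRKCA at 1 or more the senile share was called lower than the infant one, with values in the section on processing below. Rod ON nuclei made up 3.92, 3.75, 3.22, 5.31 and 5.94% of all nuclei in the 5 infant retinas. The mature retinas gave 3.23, 3.38, 4.66, 3.47 and 8.20%, and the senile retinas 3.56, 0.362, 2.06, 2.32 and 4.06%. The stages overlapped, although 3 of the 5 senile retinas lay below every infant one. Counting error is small beside this spread: the exact 95% binomial interval was 0.239 to 0.527% for the lowest retina, Senile 2, and 7.39 to 9.07% for the highest, Mature 5. Intervals and limits here cover counting error only.

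Means were 4.43 ± 1.14% in infant, 4.59 ± 2.10% in mature, and 2.47 ± 1.45% in senile retinas (SD, n = 5 each). The senile and infant means differed by -1.96 percentage points (2-sided exact permutation test, p = 0.0556, adjusted p = 0.119 over 3 comparisons). Senile and mature retinas differed by -2.12 points (exact permutation p = 0.0794, adjusted p = 0.119), and mature and infant retinas by 0.159 points (exact permutation p = 0.913). The smallest p that 5 retinas against 5 can give is 0.00794. By the study's description each library is the retina of a different animal, so p-values measure the spread between animals together with that of library preparation. A share of nuclei also moves with the recovery of every other cell type, and fewer cells and fewer UMIs per nucleus cannot be told apart in it.

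Among bipolar nuclei alone no difference passed the test either, and the senile mean was again the lowest. Only 1 senile retina lay below every infant one. Rod ON nuclei were 11.7, 11.0, 8.74, 19.1 and 16.6% of the bipolar nuclei in infant retinas. In mature retinas they were 16.0, 10.2, 18.2, 14.3 and 22.8%, and in senile retinas 10.9, 2.63, 12.5, 9.73 and 16.5%. The senile and infant means differed by -2.97 points (exact permutation test, adjusted p = 0.365) and the senile and mature means by -5.83 points (adjusted p = 0.310, exact permutation test). The mature and infant means differed by 2.86 points (adjusted p = 0.365, exact permutation test).

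These shares differed between the program versions, whose libraries also differ in depth, and the part of each was not tested. They averaged 10.2 ± 4.00% of bipolar nuclei in the 7 libraries of the older program version and 16.2 ± 4.06% in the 8 deeper ones (SD). When every nucleus was thinned to 2000 UMIs, leaving out 38934 shallower ones, the share of bipolar nuclei was 8.21, 7.40, 5.58, 7.30 and 8.35% in infant retinas. The thinned mature values were 7.45, 7.63, 9.10, 9.09 and 9.87%, and the thinned senile values 7.27, 2.06, 7.34, 4.91 and 7.38%. All 5 senile retinas then lay below all 5 mature ones, a difference of -2.83 points (exact permutation test, adjusted p = 0.0238), whereas the unthinned shares overlapped. Thinning was a single random draw, and the nearest values, 7.38% in Senile 5 and 7.45% in Mature 1, lay close together. In Senile 2, 5371 of 7451 nuclei were left out, and 6 of 291 thinned bipolar nuclei were rod ON. Of all nuclei, the share thinned to 2000 UMIs differed by -1.12 points between senile and mature retinas, which was not called (exact permutation test, adjusted p = 0.238). With nuclei thinned to 1000 UMIs the difference among bipolar nuclei was -0.885 points and was not called (exact permutation test, adjusted p = 0.167). Without Senile 2 the difference among bipolar nuclei thinned to 2000 UMIs was -1.90 points (exact permutation p = 0.0159, the smaller tail doubled). Permuting retinas only within a program version gave differences in the share of all nuclei of -2.24 points for senile and infant retinas (exact adjusted p = 0.06), of -2.12 points for senile and mature retinas (exact adjusted p = 0.15), and of -0.254 points for mature and infant retinas, where the unstratified difference was positive.

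**Figure D2:**
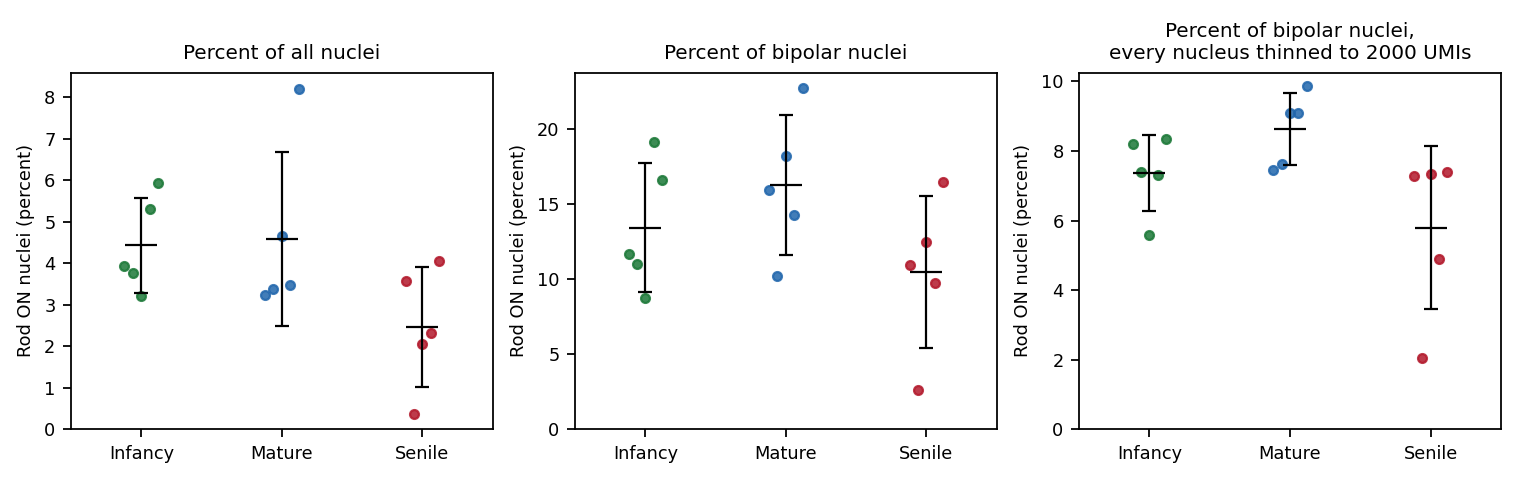
Rod ON nuclei as a percent of all nuclei, of bipolar nuclei, and of bipolar nuclei thinned to 2000 UMIs (y axes) in each retina (points) by stage (x axis), with the mean ± SD. The stages overlap in the first 2 panels, and after thinning the 5 senile points lie below the 5 mature ones.

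The second question was what sets rod ON nuclei apart from the other bipolar nuclei of the same retinas. They were compared with 4567 PRKCA-negative ON nuclei, which had at least 2 CA10 UMIs, an ON gene and 0 UMIs of PRKCA and GRIK1li1, and with 6817 OFF nuclei, which had at least 2 UMIs of CA10 and of GRIK1li1, none of PRKCA and none of the 3 ON genes. UMIs were summed per retina and tested with edgeR's quasi-likelihood test with the retina as a block. The genes of the rules and their copies were left out of this test. Against PRKCA-negative ON nuclei, 1060 of 8793 genes were higher (12.1%) and 1082 lower (12.3%) at an adjusted p under 0.05, 24.4% in all. Of these, 170 were higher and 231 lower in every one of the 15 retinas. Against OFF nuclei, 1221 of 9813 genes were higher (12.4%) and 1694 lower (17.3%), 29.7% in all, with 410 and 403 of the same sign in every retina. Both contrasts share the rod ON nuclei. Rod ON nuclei were deeper, with 3535 UMIs at the median against 1720 and 1833, and the first comparison set removes GRIK1li1 where the rod ON rule does not. Rod ON nuclei held only 3.40 PRKCA UMIs on average, so a shallower nucleus of the same kind can hold 0 by sampling. PRKCA-negative ON nuclei may thus include rod bipolar cells, and their share was not tested. With nuclei of at least 3000 UMIs alone, 1398 genes differed from PRKCA-negative ON nuclei. Doublet calls were also more frequent in rod ON nuclei. Without them, the 20 genes of each contrast named for their fold change kept their calls. Without the GRIK1li1-high nuclei 946 of 7779 genes were higher and 919 lower than in PRKCA-negative ON nuclei, and 1388 of 9449 higher and 1668 lower than in OFF nuclei. Of the gene lists described below, cone bipolar, Müller glia and the study's markers then changed a count of calls by more than 2 genes. Fold changes below are log2 values of rod ON over the other nuclei, and adjusted p-values are over all genes tested. The median over all tested genes was -0.01 and -0.02, respectively.

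Genes of the ON cascade were partly higher than in OFF nuclei and mostly lower than in the other ON nuclei. Of the 8 cascade genes tested besides those of the rule, 3 were higher and 1 was lower than in OFF nuclei (list median 0.23), and 0 were higher and 6 lower than in PRKCA-negative ON nuclei (list median -0.39). In the latter comparison 1 was higher and 4 lower of 7 without the GRIK1li1-high nuclei. GNAO1, the alpha subunit of Go that carries the mGluR6 signal, reached 1096, 1320 and 1858 CPM at the lowest, median and highest retina in rod ON nuclei. In OFF nuclei it reached 209, 297 and 382 CPM, so the groups did not overlap (log2 fold change 2.17 ± 0.06 SE, adjusted p = 5.83e-18 by edgeR). GPR179, the orphan receptor that anchors the RGS proteins at the dendritic tip, was at 68.2 ± 22.2 CPM (SD, n = 15) against 20.0 ± 5.07 in OFF and 111 ± 42.8 in PRKCA-negative ON nuclei, with log2 fold changes of 1.80 and -0.74. RGS11, which speeds the G protein off, was 0.76 higher than in OFF nuclei. RGS7, its partner in the same role, was lower than in other ON nuclei at -0.46, and RGS9BP, their membrane anchor, at -0.58. GNB5, the G beta subunit bound by RGS proteins, was lower at -0.42, but this was lost among nuclei of at least 3000 UMIs (-0.18, adjusted p = 0.438 by edgeR), as was that of RGS11 (-0.23 in all nuclei and -0.08 in the deeper ones). RGS11 was not called without the GRIK1li1-high nuclei either (-0.13, adjusted p = 0.136 by edgeR).

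Transcription factors gave a profile of their own. Of the bipolar factors tested, 8 of 16 were higher and 5 lower than in PRKCA-negative ON nuclei, and 9 of 17 higher and 3 lower than in OFF nuclei. NFIA and NFIB, a pair of nuclear factor I proteins that act in late-born retinal cells, stood at 968 ± 261 and 909.7 ± 206 CPM against 381 ± 179.6 and 368 ± 135 in PRKCA-negative ON nuclei (log2 fold change 1.45 and 1.38). LHX4, a LIM homeobox factor of cone bipolar cells in mice, was at 23.6, 82.8 and 135 CPM at the lowest, median and highest retina against 7.89, 28.2 and 74.9 in PRKCA-negative ON nuclei (1.70 ± 0.18 SE, adjusted p = 3.50e-08 by edgeR). LMO4, a LIM-only cofactor, and BHLHE23, a basic helix-loop-helix factor needed for rod bipolar cells in mice, were higher by 0.96 and 1.14. VSX1, a homeobox factor of cone bipolar cells, was lower: 0, 18.5 and 27.1 CPM in rod ON against 44.9, 70.1 and 179 in PRKCA-negative ON nuclei (-2.27 ± 0.20 SE). PRDM8, a repressor required by rod bipolar cells of mice, and ZNF521, a zinc finger protein, were lower at -0.87 and -0.60. ISL1, the LIM homeobox factor of ON bipolar cells, and PROX1 were higher than in OFF nuclei by 3.51 and 1.41. Against other ON nuclei both were called lower, at -0.31 and -0.18, and without the GRIK1li1-high nuclei neither was (-0.01 and -0.03, adjusted p = 0.921 and 0.745 by edgeR).

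Markers known from other mammals were scattered. Of the 6 rod bipolar markers tested beyond the rule genes, 2 were higher and 1 lower than in PRKCA-negative ON nuclei, and 4 higher and 1 lower than in OFF nuclei. LRRTM4, a synaptic adhesion protein of rod bipolar cells at amacrine inputs, was higher than in other ON nuclei at 1.06, yet among nuclei of at least 3000 UMIs it stood at 0.32 (adjusted p = 0.105 by edgeR). Cone bipolar markers went in opposite directions, with 12 of 17 higher and 3 lower than in PRKCA-negative ON nuclei, and 0 of 18 higher and 16 lower than in OFF nuclei. Without the GRIK1li1-high nuclei the first count was 8 higher and 4 lower of 16. Those that lost their call included MEIS2, a homeobox factor (0.90 before and -0.05 after), and FAT4, a giant cadherin (1.46 and -0.16). SOX6, an SRY-box factor of cone bipolar subsets in mice, kept its difference from other ON nuclei, at 307, 382 and 550.4 CPM against 9.91, 64.8 and 116 (2.68, and 2.37 without those nuclei). Rod ON markers that the study itself had chosen on these samples were higher for 15 of 20 and lower for 1 against PRKCA-negative ON nuclei and higher for 20 of 20 against OFF nuclei. Without the GRIK1li1-high nuclei 19 of 20 were higher and 0 lower than in PRKCA-negative ON nuclei. That list is not independent evidence, since it was drawn from the same libraries.

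By the naming rule, the genes furthest above OFF nuclei included a hormone receptor, a phosphodiesterase and kinases. TSHR, the receptor of thyrotropin, was at 23.6, 95.2 and 228 CPM at the lowest, median and highest rod ON retina and at 0, 1.82 and 6.96 in OFF nuclei (5.64 ± 0.21 SE, adjusted p = 3.19e-16 by edgeR). PDE1A, a phosphodiesterase activated by calcium and calmodulin, was at 354, 892 and 1557 against 13.7, 51.0 and 91.3 CPM (4.12). ADARB2, an RNA-binding relative of the adenosine deaminases, was at 3971, 5624 and 9262 against 169.9, 365 and 662 CPM (4.05). For these 3 genes no rod ON retina overlapped an OFF retina. LRRK1, a large kinase, B3GALT5, a galactosyltransferase, NWD2, ST18, a zinc finger repressor, MYLIP, a ubiquitin ligase, and PRKCQ, protein kinase C theta, were higher by 3.79, 3.70, 3.31, 2.93, 2.76 and 2.73. Of the genes in this paragraph, TSHR, PDE1A, ADARB2, NWD2, ST18 and PRKCQ are among the study's own markers from the same libraries, so they are not independent evidence.

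Genes lower than in OFF nuclei included extracellular matrix and channel genes. COL19A1, a collagen, stood at 194 ± 78.7 CPM against 1147 ± 268 (SD, n = 15), and DPP4, a cell surface peptidase, at 9.40 ± 5.43 against 56.2 ± 24.4. LAMA4, a laminin, and COL5A3, another collagen, were lower with log2 fold changes of -2.55 and -2.55. TRPC7, a cation channel, NELL1, a secreted protein, and PGM5, related to phosphoglucomutase, gave -2.32, -2.55 and -2.68, and SERTM1, LHFPL2 and TAFA4 gave -2.43, -2.42 and -2.17. Without the GRIK1li1-high nuclei 9 of these 10 fold changes were further from 0, at -4.47 for COL19A1, -4.29 for DPP4, -4.43 for COL5A3, -3.19 for TRPC7, -3.73 for NELL1, -4.11 for PGM5, -4.71 for SERTM1, -3.58 for LHFPL2 and -2.82 for TAFA4, and LAMA4 was at -2.29.

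Each gene that the naming rule gave as higher than in PRKCA-negative ON nuclei, and that could be tested again, had a smaller fold change without the GRIK1li1-high nuclei. CHRM3, a muscarinic acetylcholine receptor, was at 30.4, 58.6 and 85.8 against 3.30, 8.19 and 17.5 CPM (2.62, and 1.72 without those nuclei). CHST11, a chondroitin sulfotransferase, gave 1.89 and 1.52, and MAN1A1, a mannosidase of the Golgi, 1.83 and 1.40. COL19A1 went from 2.98 to 1.16, PDE11A, a phosphodiesterase, from 2.28 to 0.86, PTPN13, a tyrosine phosphatase, from 2.03 to 0.80, and DSCAM, an adhesion molecule of retinal wiring, from 1.86 to 0.55. FHOD3, a formin, lost its call (2.06 to 0.31, adjusted p = 0.142 by edgeR). FNDC1, with the largest fold of all at 3.29, was at 208 CPM in the GRIK1li1-high nuclei and 5.68 in the rest, too low there for the test.

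The genes named here as lower than in PRKCA-negative ON nuclei kept their calls without the GRIK1li1-high nuclei. ST8SIA6, a sialyltransferase, was at 0, 11.7 and 27.6 CPM at the lowest, median and highest rod ON retina and at 7.55, 78.6 and 251 in the other ON nuclei (-2.70 ± 0.19 SE, adjusted p = 2.64e-11 by edgeR). HMGCLL1, an enzyme of ketone body synthesis, was at 20.8 ± 8.46 against 109 ± 33.4 CPM (SD, n = 15) and RFX3, a factor of cilium genes, at 15.6 ± 7.18 against 86.7 ± 28.1. OSBPL10, a lipid-binding protein, CUX2, a homeobox factor, UNC5D, a netrin receptor, KCNA4, a potassium channel, MFSD4A, a transporter, and PLXNC1, a semaphorin receptor, had log2 fold changes of -2.25, -2.11, -1.95, -1.83, -1.82 and -1.77.

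**Figure D3:**
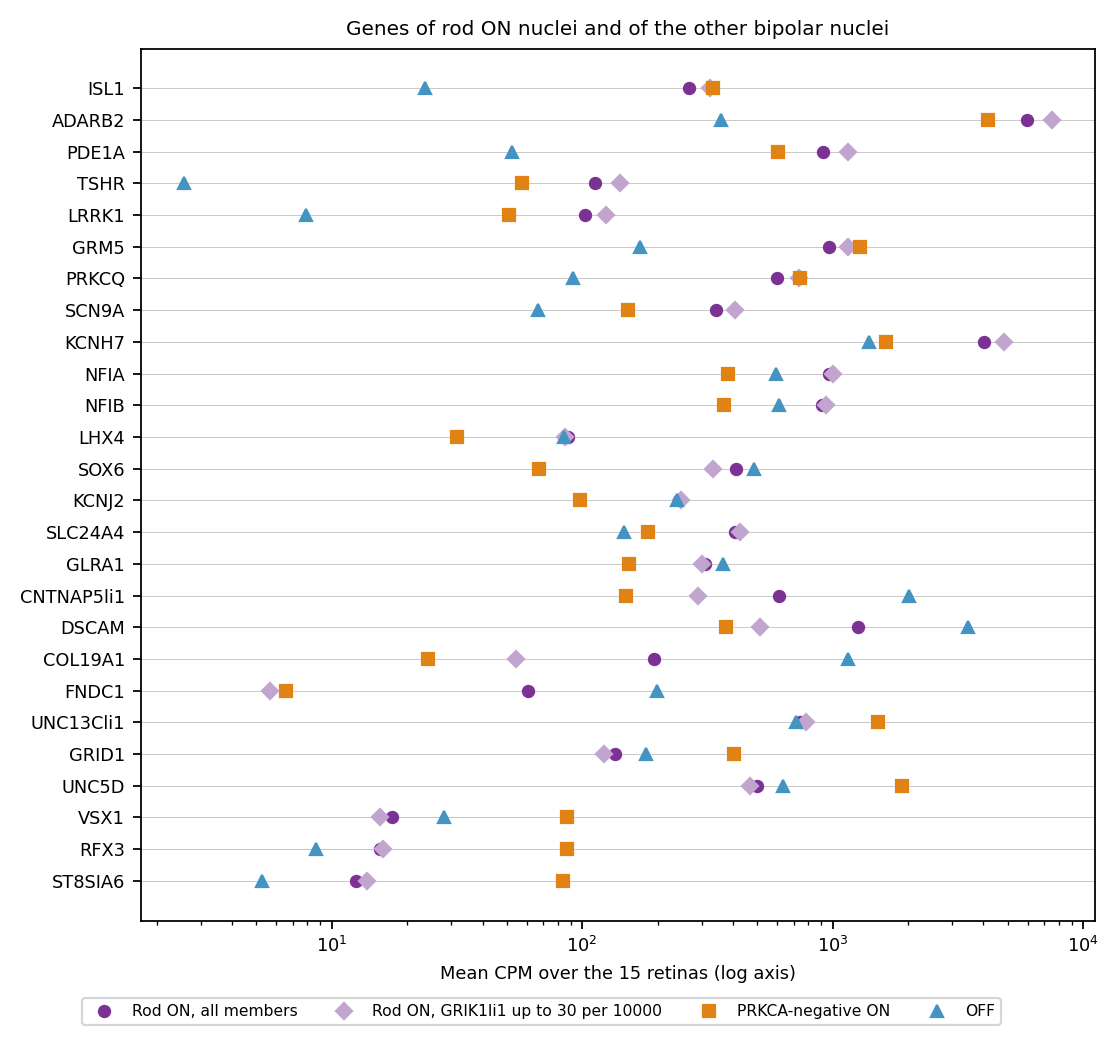
Mean CPM over 15 retinas (x axis, log scale) of 26 genes (y axis) in rod ON nuclei, in the rod ON nuclei with GRIK1li1 up to 30 per 10000 UMIs, in PRKCA-negative ON nuclei and in OFF nuclei. ISL1 and TSHR lie lower in OFF nuclei, VSX1 lies lower in rod ON than in PRKCA-negative ON nuclei, and DSCAM and COL19A1 move left when the GRIK1li1-high nuclei are left out.

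Channels that shape the light response were higher for 9 of 22 potassium, sodium and HCN genes and lower for 3 against PRKCA-negative ON nuclei, and higher for 6 of 23 and lower for 8 against OFF nuclei. KCNJ2, an inward rectifier, was at 155, 248 and 378 CPM against 38.0, 75.5 and 190.0 in other ON nuclei (1.46 ± 0.15 SE, adjusted p = 3.08e-08 by edgeR). KCNH7, a potassium channel of the ERG family, was higher by 1.41, and the sodium channels SCN9A and SCN1Ali2, a numbered copy of SCN1A, by 1.22 and 1.20. KCNH8, a potassium channel related to KCNH7, was lower at -1.15. KCNB2, a delayed rectifier, was 1.07 higher than in OFF nuclei.

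Release and receptor genes can be set beside all tested genes, of which 12.1% were higher and 12.3% lower than in PRKCA-negative ON nuclei and 12.4 and 17.3% higher and lower than in OFF nuclei. Of the ribbon synapse and release genes, 3 of 26 were higher and 9 lower than in PRKCA-negative ON nuclei, and 3 were higher and 10 lower than in OFF nuclei (list medians -0.07 and -0.15). UNC13Cli1, a copy of the vesicle priming factor UNC13C, was at 741 ± 123 against 1520 ± 269.6 CPM in other ON nuclei (SD, n = 15, -1.02). Of the GABA and glycine receptor genes, which take up amacrine inhibition, 3 of 17 were higher and 6 lower than in other ON nuclei, and 2 of 18 higher and 9 lower than in OFF nuclei (list medians -0.01 and -0.30, beside -0.01 and -0.02 over all genes). GABRR3, a subunit of the slow GABA receptors of bipolar terminals, was higher than in other ON nuclei at 1.57 and lower than in OFF nuclei at -0.50, the latter not called among nuclei of at least 3000 UMIs (0.09, adjusted p = 0.606 by edgeR). GLRA1, a glycine receptor subunit, behaved alike, at 1.04 and -0.32, with 0.02 (adjusted p = 0.951 by edgeR) against OFF nuclei in the deeper nuclei. Of the glutamate receptor and scaffold genes, 5 of 20 were higher and 9 lower than in other ON nuclei, and 3 higher and 10 lower than in OFF nuclei (list medians -0.20 and -0.18). GRID1, a delta receptor, was lower than in other ON nuclei at -1.59, and GRM5, a metabotropic receptor that acts through Gq, was 2.54 higher than in OFF nuclei.

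Protein kinase C and calcium genes were higher for 9 of 24 and lower for 8 than in PRKCA-negative ON nuclei, and higher for 11 and lower for 8 than in OFF nuclei. SLC24A4, a sodium, calcium and potassium exchanger, was at 406 ± 67.8 against 183 ± 81.9 CPM in other ON nuclei (1.30). PRKCE, another kinase C, PLCB1, a phospholipase that activates such kinases, and RYR3, a calcium release channel, were lower at -0.87, -1.13 and -0.83, with RYR3 at -1.42 without the GRIK1li1-high nuclei. Adhesion and wiring genes were higher for 15 of 31 and lower for 7 than in other ON nuclei, and higher for 10 and lower for 16 than in OFF nuclei. CNTNAP5li1, a copy of a contactin-associated protein, was 2.13 higher than in other ON nuclei, TENM3, a teneurin, 1.45 and NLGN1, a neuroligin, 0.78. When the GRIK1li1-high nuclei were left out these values were 1.07, 0.84 and 0.75. TENM1 and NLGN4X, of the same families, were lower at -1.75 and -1.02. ROBO2, a receptor of SLIT guidance cues, was 1.62 higher than in OFF and lower than in other ON nuclei at -0.51.

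Oxidative phosphorylation genes were higher for 2 of 17 and lower for 1 than in PRKCA-negative ON nuclei, and 4 were higher and 0 lower than in OFF nuclei. Heat shock and stress genes were higher for 0 of 9 and lower for 2, and higher for 0 and lower for 1, respectively. Over all genes 24.4 and 29.7% were called in these comparisons. Developmental RNA-binding and immature neuron genes were higher for 1 of 6 and lower for 2 than in PRKCA-negative ON nuclei, and higher for 3 of 7 and lower for 3 than in OFF nuclei. Leaving out the GRIK1li1-high nuclei gave 3 higher and 1 lower in the former comparison, and 3 higher and 2 lower in the latter.

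Markers of other cells were measured in the same nuclei. The 6 Müller glia markers summed to 237 to 1142 CPM in rod ON nuclei across retinas, 212 to 533 in PRKCA-negative ON nuclei, and 678 to 1538 in OFF nuclei, with none of the 6 at 0. Of the 5 tested, 5 were higher than in PRKCA-negative ON nuclei, and 2 were higher and 1 lower than in OFF nuclei. Without the GRIK1li1-high nuclei these counts were 2 higher, and 0 higher and 2 lower. Rod markers, with CNGA1 at 0, were higher for 0 of 3 against other ON nuclei, and higher for 1 and lower for 1 of 4 against OFF nuclei. Cone markers, with CNGB3 and GNGT2 at 0 and ARR3 at 0 by the rule, were lower for 2 of 3 and for 2 of 4. Amacrine markers, with SLC32A1 at 0, were higher for 2 and lower for 1 of 5, and higher for 1 and lower for 1 of 6. They summed to 214 to 644 CPM in rod ON nuclei across retinas and to 518 to 828 CPM over all nuclei. Ganglion cell markers were lower for 3 of 4 and for 5 of 5. Horizontal cell markers were higher for 1 of 3, and higher for 1 and lower for 1 of 3. Their sums were 199 to 662 CPM in rod ON nuclei across retinas and 192 to 329 CPM over all nuclei. Astrocyte and microglia markers were higher for 1 of 2 in both contrasts. Sums of rod, cone, ganglion, and astrocyte and microglia markers had lower means in rod ON than over all nuclei, in part by the rule for ARR3 and RBPMS. CNGA1, CNGB3, GNGT2 and SLC32A1 were at 0 in every nucleus of the series, so their 0 bears on nothing here. The part of other cells' RNA in the gene differences was not tested.

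The third question was which genes of rod ON nuclei differ between stages. Counts summed per retina were fitted with the program version as a covariate, and 11196 genes were tested. Senile against infant retinas gave 73 genes higher (0.652% of those tested) and 13 lower (0.116%), 0.768% in all, by edgeR's quasi-likelihood test. Mature against infant retinas gave 47 higher (0.42%) and 23 lower (0.205%), 0.625% in all. With no filter on low counts the balance of the mature comparison turned, with 154 genes higher and 190 lower, and the senile one gave 260 higher and 129 lower. Leaving out Infancy 4 left 34 genes in the mature comparison, and leaving out Infancy 1, 2 or 5 or Mature 1, 2 or 5 left 41 to 45. Senile against mature retinas gave 0 by edgeR, with 999 genes at an unadjusted p under 0.05 and 19 called by DESeq2. Of the genes called against infancy, 49 were called in both comparisons, 44 higher and 5 lower in both, but these comparisons share the infant retinas. Stages that did not overlap in CPM made up 1.51% of tested genes for senile and infant retinas, 1.57% for mature and infant retinas, and 0.982% for senile and mature retinas. Of the 11196 features tested, 7636 carry a gene symbol. Among the called ones, 8 of the 73 higher and 6 of the 13 lower in the senile comparison did, and 4 of the 47 and 3 of the 23 in the mature one. The others were numbered copies, long noncoding or antisense features, or were unnamed. With all retinas thinned to the same total and Senile 2 left out, 40 genes were called for senile and 19 for mature against infant retinas.

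IGF2BP2, an RNA-binding protein that holds and stabilises mRNAs in developing tissue, showed the largest change among the named genes. It reached 75.0, 85.3, 71.3, 67.7 and 65.9 CPM in the rod ON nuclei of the 5 infant retinas. The mature retinas gave 10.2, 13.3, 18.3, 2.34 and 2.44 CPM, and the senile retinas 7.93, 0, 2.04, 5.03 and 4.25. Every mature and every senile retina lay below every infant one. The naming rule for stage genes required stages without overlap in CPM, so the separation of the genes it gave is no further evidence. The fall was -3.83 ± 0.46 (log2, SE) in senile retinas (adjusted p = 7.53e-05 by edgeR) and -2.91 ± 0.36 in mature retinas (adjusted p = 0.000236 by edgeR). The other bipolar nuclei had the same order: the infant mean was 52.7 ± 16.8 CPM in PRKCA-negative ON and 51.7 ± 10.2 in OFF nuclei, and the senile means there were 4.05 ± 4.85 and 3.26 ± 2.47 CPM (SD, n = 5). Its relative IGF2BP3 was at 4.46 CPM in infant and 3.53 in senile retinas, and IGF2BP1 had 0 of 19911086 rod ON UMIs, which allows up to 0.151 CPM, and 29 UMIs over all nuclei.

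SLCO1C1, a transporter of thyroid hormone, fell with it. Infant retinas held 35.8, 37.8, 38.0, 31.8 and 46.0 CPM, mature retinas 20.5, 16.7, 22.5, 8.57 and 14.2, and senile retinas 10.9, 0, 14.3, 17.6 and 14.9. All infant values lay above all others (-1.52 ± 0.28 for senile, adjusted p = 0.00747, and -1.22 ± 0.24 for mature retinas, adjusted p = 0.0211 by edgeR). The senile call was lost without Senile 1 (adjusted p = 0.0549 by edgeR) and under 4 of 25 alternatives in all, and the mature call under 9. FXR1, an RNA-binding relative of the fragile X protein, was at 121, 90.4, 134, 121 and 94.0 CPM in infant and 85.3, 23.6, 67.2, 45.2 and 47.8 in senile retinas, which did not overlap (-0.95, adjusted p = 0.0179 by edgeR). TET1, which oxidises methylated cytosine in DNA, was at 124, 116, 108, 150.0 and 157 and 81.3, 70.9, 93.7, 93.0 and 65.4 CPM, also apart (-0.88, adjusted p = 0.00551 by edgeR). CDH13, a cadherin held by a lipid anchor, had a senile log2 fold change of -0.91 at the edge of the threshold (adjusted p = 0.0495 by edgeR), lost under 14 of 25 alternatives. The FXR1 call was lost without Infancy 4, without Senile 4 or without Senile 5 (adjusted p = 0.0891, 0.0726 and 0.0878 by edgeR). Over all nuclei the infant and senile means were 39.0 and 22.3 CPM for SLCO1C1 and 95.2 and 60.6 for FXR1. They were 132 and 108 CPM for TET1 and 80.2 and 76.9 for CDH13.

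SCN3A, a sodium channel of immature neurons, was the only member of the channel list called by stage, and was lower in senile retinas. It gave 227, 204, 195, 257 and 246 CPM in infant, 160.2, 131, 175, 139 and 132 in mature, and 116, 307, 110.0, 126 and 121 in senile retinas (-0.94 ± 0.16 SE, adjusted p = 0.00389 by edgeR). The stages overlapped through Senile 2 alone, the highest of all 15 values and the retina of least depth. ADAMTS6, an extracellular metalloprotease, fell in mature retinas (79.4, 49.7, 63.0, 76.1 and 64.0 CPM in infant and 34.4, 43.3, 43.4, 25.7 and 32.7 in mature, -0.90, adjusted p = 0.0491 by edgeR). This call was lost under 18 of 25 alternatives, among them the omission of any 1 of 11 retinas.

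Among the genes that rose, EVA1C, a membrane protein that binds SLIT guidance cues, was called in both comparisons with infancy. Infant retinas held 12.3, 12.6, 17.8, 11.7 and 12.1 CPM, mature retinas 54.9, 41.6, 34.5, 31.2 and 39.5, and senile retinas 34.7, 23.6, 40.7, 47.7 and 31.4, with every infant retina below all the others. The lowest of the later values, 23.6 CPM in Senile 2, is 1 UMI, as are the values of FXR1 and MGMT in that retina. EVA1C rose by 1.48 ± 0.23 in senile (adjusted p = 0.000928 by edgeR) and 1.61 ± 0.21 in mature retinas (adjusted p = 0.000314 by edgeR). SKAP2, an adaptor of Src kinase signalling, was at 2.24, 3.71, 7.13, 5.86 and 4.85 CPM in infant and 15.4, 21.7, 14.1, 18.7 and 13.7 in mature retinas (1.72, adjusted p = 0.00829 by edgeR). Senile retinas gave 14.9, 0, 14.3, 16.3 and 19.7 CPM, where the 0 is that of Senile 2. MGMT, which repairs alkylated guanine in DNA, rose from 10.1, 9.64, 10.7, 9.88 and 12.6 CPM in infant to 16.9, 23.6, 36.7, 40.2 and 26.0 in senile retinas (1.29, adjusted p = 0.0468 by edgeR). The MGMT call was lost under 17 of 25 alternatives, among them the omission of any 1 of 12 retinas.

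MIPOL1, and the unnamed feature NA-1033-1, rose in senile retinas by 1.33 and 3.17 (adjusted p = 0.0262 and 0.000890 by edgeR). GSN, the actin-severing protein gelsolin, and CDC14B, a phosphatase, rose in mature retinas by 2.51 and 0.90 (adjusted p = 0.0480 and 0.0483 by edgeR), both at the edge of the threshold. Their calls were lost under 19 and 17 of 25 alternatives, respectively, and that of MIPOL1 under 10. GSN in Mature 4 was at 136 CPM, above every other retina.

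**Figure D4:**
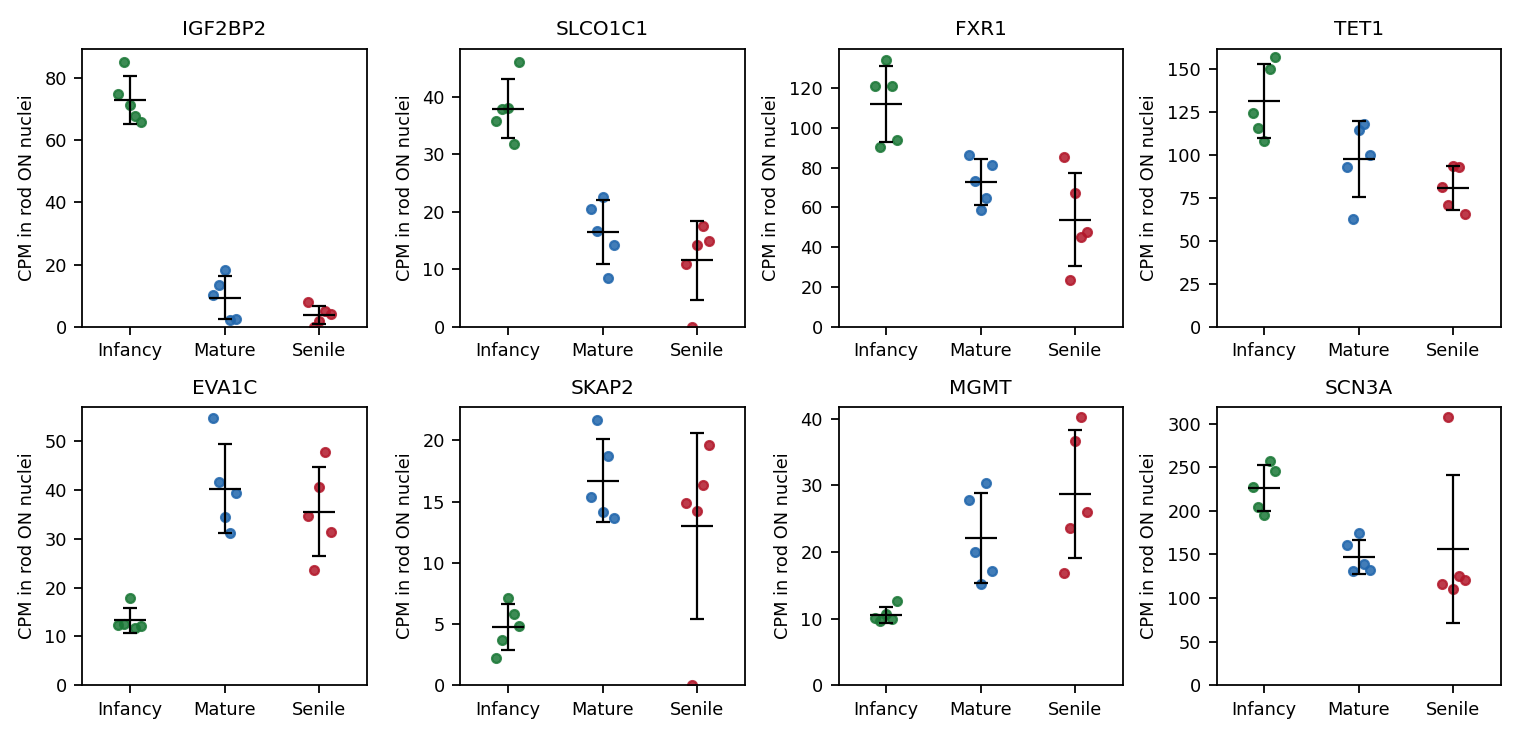
CPM (y axes) in the rod ON nuclei of each retina (points) by stage (x axis) for IGF2BP2, SLCO1C1, FXR1, TET1, EVA1C, SKAP2, MGMT and SCN3A, with the mean ± SD. IGF2BP2 is between 65.9 and 85.3 in infant retinas and at most 18.3 in the others. EVA1C is at most 17.8 in infant retinas and at least 23.6 in the others, where 23.6 is 1 UMI of Senile 2.

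Genes that mark the cell type were not called by stage with edgeR. Among those of the rule, given as a description, TRPM1 was at 405 ± 91.1 CPM in infant, 456 ± 71.1 in mature, and 393 ± 153 in senile retinas (SD, n = 5). PCP2 was at 576 ± 212, 446 ± 159 and 465 ± 216 CPM, and GRM6 at 33.0 ± 4.28, 38.0 ± 11.2 and 45.9 ± 16.7. Of the lists on the mGluR6 cascade, transcription factors, rod and cone bipolar markers, the study's markers, ribbon synapse, inhibitory and glutamate receptors, kinase C and calcium, adhesion, oxidative phosphorylation, heat shock and other cells, 0 members passed the test in any of the 3 stage comparisons by edgeR. IGF2BP2 in the developmental list, in both comparisons with infancy, and SCN3A in the channel list were the only list members called. Over all 263 list genes tested, 28, 11 and 27 had an unadjusted p under 0.05 by edgeR for senile against infant, mature against infant, and senile against mature retinas. Over all 11196 genes tested these counts were 875, 963 and 999. DESeq2 also called FBN2, a fibrillin, and GABRR1, a GABA receptor subunit, in the first comparison and SCN3A in the second, and 0 in the third. GABRR1 is also on the list of rod bipolar markers of other mammals. The list medians of the cascade were -0.26 for senile and 0.03 for mature against infant retinas, beside -0.04 and -0.01 over all genes. A gene without a call may still have changed: in simulated data for the senile comparison the same test found 83% of genes changed 4-fold and 35% of those changed 2-fold.

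Whether a stage difference was unlike that in the other bipolar nuclei was tested as an interaction. With all members it was called for 0 genes for either stage against infancy, both against PRKCA-negative ON nuclei (465 and 530 of 11006 genes at an unadjusted p under 0.05 for mature and senile retinas) and against OFF nuclei (332 and 486 of 12025) by edgeR. Without the GRIK1li1-high nuclei it was called for 1 gene, MAN1C1, a mannosidase of the Golgi, in mature against infant retinas. MAN1C1 was at 24.9 ± 4.24 CPM in infant and 45.8 ± 11.2 in mature retinas in the rod ON nuclei so restricted, and at 47.3 ± 5.03 and 34.7 ± 7.93 in PRKCA-negative ON nuclei (SD, n = 5). The 2 log2 changes differed by 1.38 (adjusted p = 0.0127 by edgeR), and by 1.14 with all members (adjusted p = 0.141 by edgeR). This gene was named after its values were seen.

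Many features that rose after infancy were numbered copies or noncoding features named after a few repeat-like families, a grouping made after their values were seen. The grouping rests on shared names alone. Sequences were not compared, so whether reads are split within a family or counted under the wrong feature is not known. Calls within a family may therefore not be separate results. The calls below are of single features by edgeR. Over all features tested, 0.652% were called higher in the senile and 0.42% in the mature comparison. The sums were not tested. In the senile comparison 11 of 24 tested features named after ZFP39, a zinc finger gene, were higher and 0 lower, as were 8 of 9 named after ZFP809, a repressor of retroviral elements in mice, 5 of 8 after ENV, 4 of 9 after VMN2R116, a vomeronasal receptor, and 3 of 7 after MIA3, a secretion factor. In the mature comparison 11, 5, 3, 3 and 3 were higher and 0 lower. Of 2 features named after FAM149A, 2 were higher in senile retinas, and of 3 after ZMPSTE24, a protease, 2 were higher and 0 lower. Other families had calls in both directions or few calls. Of 79 features named after LORF2, 4 were higher and 1 lower in senile retinas (median log2 fold change -0.09) and 3 higher and 1 lower in mature retinas (-0.18), and of 77 named TSORF, 4 and 1 higher and 1 and 1 lower in senile and mature retinas, respectively. Of 8 named after RALGDS, 1 was higher and 1 lower in senile, and 1 higher and 2 lower in mature retinas. Of 9 named after RPS6, a ribosomal protein, 2 were higher and 0 lower in either comparison.

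The 139 features named after ZFP39 summed to 387, 345, 435, 354 and 352 CPM in the rod ON nuclei of infant retinas. They summed to 698, 682, 462, 723 and 642 CPM in mature and 1069, 945, 896, 741 and 948 in senile retinas, and the 3 stages did not overlap. The 31 named after ZFP809 summed to 47.9 ± 12.9, 139 ± 30.2 and 217 ± 30.9 CPM in infant, mature, and senile retinas (SD, n = 5), and the 43 named after MIA3 to 69.1 ± 16.7, 206 ± 38.3 and 341 ± 49.3, again without overlap. For the 253 named after VMN2R116 the sums were 155 ± 33.8, 264 ± 73.1 and 475 ± 66.1 CPM, and infant and mature retinas overlapped. The 471 features named after ENV or POL summed to 508 ± 83.4, 563 ± 46.7 and 793 ± 87.9 CPM, with infant and mature retinas again overlapping and the senile ones above both. The same order of the stage means was found in the other bipolar nuclei. ZFP809 features summed to 36.6 ± 10.3 and 208 ± 33.9 CPM in infant and senile PRKCA-negative ON nuclei and to 37.7 ± 4.87 and 212 ± 29.5 in OFF nuclei.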

How the data were processed

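Nuclei of 15 tree shrew retinas were sequenced on the 10x Genomics platform. The authors counted reads on the TS_3.0 assembly with Cell Ranger, in version 6.1.2 for 7 libraries and 7.0.1 for 8 per the file headers (the submitters' processing notes give 5.0.1 for the 7). The deposited matrices hold UMI counts of each feature in each called barcode, unscaled. Whether intron reads were counted is not given in the sources used here. The 83605 features include only 3 mitochondrial ones, so the 5% limit tests little. Members, gene lists and tests were chosen with earlier results of these data known. Genes absent as a symbol, and GRIK1, whose symbol held 31 UMIs, were read from their numbered copy with the most counts. Doublets were called with simulated doublets in scikit-learn 1.9.0 (Python 3.11.15) and kept.

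Gene tests were made over retinas in place of tests per nucleus. Shares, which the study also compared over individuals, were tested with 2-sided exact permutation tests over retinas. UMIs summed per retina and kind of nucleus, in retinas with at least 10 nuclei, were tested with edgeR 4.0.16 (R 4.3.3; quasi-likelihood, TMM, filterByExpr, Benjamini-Hochberg over all genes, threshold 0.05), with the program version as a covariate for stages and the retina as a block between kinds of nuclei. On simulated data for the senile comparison the test found 83% of genes changed 4-fold among 10683. Named genes had an adjusted p under 0.05 and the largest fold changes, with stages that did not overlap and at least 10 CPM in each retina of the higher stage (at most 12 each way), or the same sign in every retina and at least 50 CPM in the higher kind (at most 10 each way); numbered, antisense and noncoding features were counted only, and members of the gene lists could be named in addition. SCN3A was named as a list member. Alternatives were DESeq2 1.42.0, its size factors, no filter, other PRKCA limits, thinning, leaving out doublet calls, GRIK1li1-high nuclei or each retina, and the replicate number as a block. Some genes that these rules or lists hold are not reported here.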

Additional observations from a re-analysis of the deposited data

Results flagged for a closer look

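In 54 groups of 5 retinas, each value was checked for a retina far from the other 4 of its stage, and 6 stood apart. Chance gives about 1 in 20 such groups. The values checked did not include SCN3A, which in Senile 2 was at 307 CPM, far above the other senile retinas. The share of rod ON nuclei in Mature 5 was 8.20% of its nuclei, with the other mature retinas at 4.66% or less. In Senile 2, the retina with 27 rod ON nuclei, ADAMTS6 was at 118 CPM, where the other senile retinas held 28.9 to 44.6 CPM, and SKAP2 was at 0 CPM, where they held 14.3 to 19.7 CPM. EVA1C in Infancy 3 was at 17.8 CPM, above the 11.7 to 12.6 CPM of the other infant retinas and below every mature and senile retina. In Mature 4, GSN was at 136 CPM with the other mature retinas at 11.0 to 33.7 CPM, and MIPOL1 was at 43.6 CPM with the others at 13.9 to 19.5 CPM.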

How the results depend on the processing

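The share of rod ON nuclei in mature against infant retinas (0.159 points of all nuclei) changed sign with PRKCA at 1 or more (-0.707), within the program version (-0.254), when nuclei were thinned to 1000 UMIs (-0.0966 of all nuclei, -0.0945 of bipolar nuclei), and without Infancy 2 (-0.00941), Infancy 3 (-0.143) or Mature 5 (-0.744). Leaving out each retina in turn gave -0.744 to 0.537 points for this share, -2.35 to -1.43 for senile against infant, and -2.51 to -1.21 for senile against mature retinas. Of bipolar nuclei the ranges were 1.24 to 4.38, -4.47 to -1.01, and -7.35 to -3.87. With PRKCA at 1 or more the senile share was below the infant one by a called difference (-3.35 points, exact permutation adjusted p = 0.0238), and thinning to 2000 UMIs gave -2.83 points for senile against mature among bipolar nuclei. The cause was not tested.

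Counts of changed genes moved with the processing. IGF2BP2 and EVA1C kept their calls in both comparisons with infancy under every alternative that tested them. CDH13, MGMT, GSN, CDC14B and ADAMTS6 lost theirs under most, and MIPOL1, FXR1, TET1 and SLCO1C1 under some. For senile and mature against infant retinas, 86 and 70 genes became 138 and 117 by DESeq2 (19 for senile against mature), 389 and 344 with no filter on low counts (180), 55 and 29 without doublet calls, 56 and 40 without the GRIK1li1-high nuclei, 1 and 3 with every retina thinned to the total of Senile 2, where IGF2BP2 and EVA1C were too low to be tested, and 40 and 19 with that retina left out of the thinning. PRKCA at 1 or more gave 133 for senile and PRKCA at 3 or more 34 for mature against infant retinas, and leaving out the program version gave 36 for the latter. Leaving out each retina gave 75 to 103, 34 to 71 and 0. Leaving out GRIK1li1-high nuclei, thinning without Senile 2 and thinned shares of all nuclei were chosen after seeing the data. Against PRKCA-negative ON nuclei 2142 genes became 1398 with nuclei of at least 3000 UMIs, and each retina left out gave 1957 to 2167. Against OFF nuclei it gave 2742 to 2981.

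Retinas of different stages share replicate numbers, but the numbers did not pair them: same-numbered retinas correlated from -0.31 to 0.63, with 10 of 15 pairs above 0.1 and 5 of 15 retinas closest to their own number. Retinas of different stages correlated at a median of 0.20 within a program version and of -0.27 across versions. With the replicate number as a block, 74 genes were called for senile and 35 for mature against infant retinas. Without the retina as a block between kinds of nuclei, 1140 genes were called against PRKCA-negative ON and 1767 against OFF nuclei. Senile 2 has only 27 rod ON nuclei. Simulated 2-fold changes were found in 35% of cases for senile against infant retinas, and in 89 and 94% between kinds of nuclei within retinas, and the parts of depth and of the spread between animals were not separated.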
